A study of Mus musculus with 12 samples.

Results

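The respiratory chain is built from subunits encoded by 2 genomes, the nuclear genome and the mitochondrial genome. Its genes were taken here as every row of the deposited count tables whose symbol begins with mt- or Nduf, is Sdha, Sdhb, Sdhc or Sdhd, begins with Uqcr, or begins with Cox followed by 4 to 8 and a letter. Of 91 such rows, 87 reached 1 CPM (a gene's share of its library's counts, scaled to parts per 1e6) in at least 1 of the 12 libraries, out of 22273 genes listed for gastrocnemius and 22252 each for liver and gonadal white adipose tissue (WAT). The 4 left out were Cox5b-ps, Cox7b2, Cox8c and Ndufb11b, which peaked at 0.389 CPM or lower. Cox6b2, the member nearest the limit, peaked at 1.47 CPM, in gonadal WAT under GRmKO CORT, and had a mean under 1 CPM in every tissue, so it was listed as a member but not compared. The 87 members comprised 74 nuclear genes and the 13 protein-coding genes of mitochondrial DNA.

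RNA came from male C57BL/6J mice that all carried a floxed Nr3c1 gene, which encodes the glucocorticoid receptor (GR). GRf/f mice had no Cre. GRmKO mice also carried Acta1-Cre, a Cre driven by the skeletal muscle actin promoter. It deletes the floxed exon 3 in myofibres, with loss of functional receptor protein, and other cells of the muscle keep the exon. Treatment began at 8 weeks of age and lasted 4 weeks. Vehicle mice had 1% ethanol in their drinking water, and CORT mice had 100 µg/mL corticosterone, the principal rodent glucocorticoid, added to it. Each library was 1 pool of RNA from 3 mice, and each of the 12 combinations of tissue, genotype and treatment had 1 library, so there is no replicate check and no p-value. A gene was counted as higher or lower when its CPM, after 0.5 CPM had been added to each side, differed by at least 1.5-fold between 2 libraries, and the share of all genes past that fold in the same direction is given beside the counts. Comparisons covered genes with a mean of at least 1 CPM over the 4 libraries of a tissue. Intervals are 95% and cover counting error only, not the spread between mice or pools.

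Electrons from NADH enter the chain at complex I and those from succinate at complex II. They pass through complex III and cytochrome c to complex IV, where oxygen is reduced, and the proton gradient that results drives ATP synthase, complex V. Mitochondrial DNA encodes core subunits of complexes I, III, IV and V, whereas complex II and the accessory subunits of the others are nuclear. Several nuclear subunits of complex IV exist as paired isoforms, 1 typical of heart and skeletal muscle and 1 of most other tissues.

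The libraries held between 19394572 and 20940660 expected counts, and the smallest level set as visible, 3 counts, was 0.143 to 0.155 CPM. In gastrocnemius Nr3c1 was at 113 CPM in GRf/f vehicle, 90.4 in GRf/f CORT, 46.4 in GRmKO vehicle and 35.5 in GRmKO CORT, so both GRmKO libraries were below both GRf/f libraries. These values cover the whole transcript and not the deleted exon alone. In liver it ranged from 45.2 to 60.8 CPM and in gonadal WAT from 111 to 158 CPM. The 5 markers of skeletal muscle fibres summed to at least 72754 CPM in each gastrocnemius library, the 6 hepatocyte markers to at least 70279 CPM in each liver library, and the 6 white adipocyte markers to at least 22284 CPM in each gonadal WAT library. Each deposited row bears the name of a single transcript, and 86 of the 87 members had the same transcript in all 3 tissues, the exception being Cox6b2.

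Overlapping sequence bears on how the mitochondrial values can be read, as in mt-Atp8, which encodes a small subunit of ATP synthase and lies on chromosome M at positions 7766 to 7969 of GRCm38, plus strand. Its last 43 bases, in capitals, are also the first bases of mt-Atp6 (7927 to 8607), so reads from them fit both genes.
mt-Atp8: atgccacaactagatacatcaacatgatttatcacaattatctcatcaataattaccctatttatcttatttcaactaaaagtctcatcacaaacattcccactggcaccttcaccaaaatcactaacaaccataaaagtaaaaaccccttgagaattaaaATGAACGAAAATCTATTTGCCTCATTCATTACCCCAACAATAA

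Promoter regions are shown for the muscle and general isoform genes of subunits VIIa and VIII, since the muscle forms passed the fold in both gastrocnemius and gonadal WAT. Windows of 250 bases before to 50 after the start, from RefSeq on build GRCm38.p6, are shown for Cox8b (chr7:140900397-140900696, minus strand) and Cox7a1 (chr7:30183921-30184220, plus strand), the muscle isoform genes, beside Cox8a (chr19:7217567-7217866, minus strand) and Cox7a2 (chr9:79759804-79760103, minus strand), the general ones. Capitals mark letters that match a searched motif.
Cox8b: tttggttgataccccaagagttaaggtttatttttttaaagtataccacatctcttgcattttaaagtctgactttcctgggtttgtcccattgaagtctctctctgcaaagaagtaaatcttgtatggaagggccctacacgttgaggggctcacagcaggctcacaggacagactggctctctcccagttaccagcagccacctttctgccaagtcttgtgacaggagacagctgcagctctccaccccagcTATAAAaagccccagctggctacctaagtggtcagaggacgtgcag
Cox8a: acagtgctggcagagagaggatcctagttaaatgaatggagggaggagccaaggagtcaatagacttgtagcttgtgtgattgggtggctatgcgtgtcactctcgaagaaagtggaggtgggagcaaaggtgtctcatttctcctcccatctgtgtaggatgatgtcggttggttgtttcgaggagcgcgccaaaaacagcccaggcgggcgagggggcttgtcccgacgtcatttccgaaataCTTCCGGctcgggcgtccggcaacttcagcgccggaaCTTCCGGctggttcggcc
Cox7a1: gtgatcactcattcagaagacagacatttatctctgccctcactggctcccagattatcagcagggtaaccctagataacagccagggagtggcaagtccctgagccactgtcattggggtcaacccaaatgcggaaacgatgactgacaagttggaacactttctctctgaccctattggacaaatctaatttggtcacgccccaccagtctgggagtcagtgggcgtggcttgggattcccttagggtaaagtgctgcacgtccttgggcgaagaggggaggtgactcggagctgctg
Cox7a2: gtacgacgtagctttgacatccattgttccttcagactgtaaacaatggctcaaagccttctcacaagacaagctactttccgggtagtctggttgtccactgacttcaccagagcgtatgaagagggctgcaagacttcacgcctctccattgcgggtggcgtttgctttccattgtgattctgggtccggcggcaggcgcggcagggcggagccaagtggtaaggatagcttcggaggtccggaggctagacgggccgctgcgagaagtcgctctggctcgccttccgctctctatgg

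Cox8b held 1 TATAAA and 2 CpG pairs, whereas Cox8a held 2 copies of CCGGAAG, on the minus strand of the window, and 19 CpG pairs. Cox7a1 held 7 CpG pairs and Cox7a2 held 20, and neither matched a searched motif. Over the 62 windows of the 60 nuclear members that could be matched by symbol, out of 74, the median was 19.5 CpG pairs, against 7 over all 32851 windows of the same length. On either strand, GCGCANGCG, the letters of the nuclear respiratory factor 1 site, were present in 25.8% of the members' windows and 6.25% of all windows. CCGGAAG, recognised by GABP and other ETS factors, was in 20.97% and 8.86%, ATGGCGG of YY1 in 17.7% and 4.05%, and AAGGTCA of the oestrogen-related receptors in 6.45% and 4.72%. TATAAA was in 9.68% of the members' windows and 13.6% of all. A pair of inverted GNACA half-sites spaced by 3 bases, the letters of a glucocorticoid response element, was found in 0 of the 62 windows and in 0.475% of all. A match is a stretch of letters and not a measured site, and a missing match says nothing of binding elsewhere.

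Mitochondrially encoded transcripts took up the larger part of the chain's RNA in every library. In gastrocnemius they were 26.0% of the counts in GRf/f vehicle, 27.3% in GRf/f CORT, 30.7% in GRmKO vehicle and 27.99% in GRmKO CORT. In liver the shares were 19.1%, 17.5%, 18.1% and 16.4% in the same order, and in gonadal WAT 17.5%, 15.4%, 15.1% and 16.99%. The gastrocnemius libraries were thus above all 8 others. Within gastrocnemius both GRmKO shares were above both GRf/f shares, in liver both CORT shares were below both vehicle shares, and in gonadal WAT neither genotype nor treatment separated the libraries. In a bulk tissue, fewer cells of a type and less RNA per cell cannot be told apart. The share of the nuclear members was 1.14% to 1.59% in gastrocnemius. It was 0.593% to 0.657% in liver, and gonadal WAT lay between with 0.679% to 0.949%. In gastrocnemius both GRmKO libraries (1.51% and 1.59%) lay above both GRf/f libraries (1.21% and 1.14%), and in gonadal WAT GRf/f CORT was lowest.

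**Figure D1:**
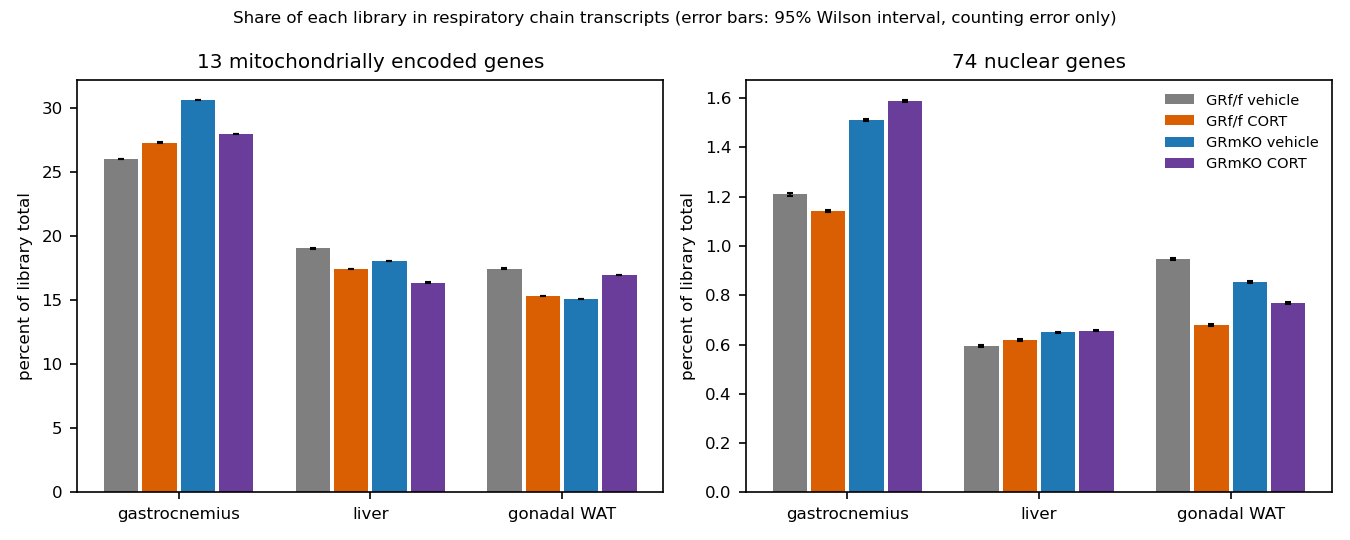
Percent of each library's counts in the 13 mitochondrially encoded genes (left) and the 74 nuclear genes (right), by tissue, with the 4 libraries of a tissue as bars and 95% Wilson intervals for counting error. Nuclear members were highest in the 2 GRmKO gastrocnemius libraries (1.51% and 1.59%), and in gonadal WAT they were lowest in GRf/f CORT (0.679%).

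In gastrocnemius, GRmKO mice had more RNA of many nuclear members than GRf/f mice. Under vehicle 20 of 73 nuclear members were higher and 1 was lower, against 15.8% higher and 9.76% lower among all 12190 genes, with a median log2 change of 0.34 against 0.08. Under CORT 35 of 73 were higher and 0 lower, against 15.4% higher and 13.8% lower among all genes, with a median of 0.55 against 0.04, and 69 of the 73 lay above 0. By complex under CORT, 18 of 36 complex I subunits (median 0.58), 1 of 4 complex II subunits (0.41), 3 of 8 complex III subunits (0.50), 8 of 15 complex IV subunits (0.62) and 5 of 8 complex I assembly factors (0.61) were higher. Under vehicle the counts were 10, 0, 1, 7 and 1 in the same order, with the highest median, 0.56, in complex IV. These 2 comparisons use different libraries of both genotypes.

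Short transcripts as a whole were higher in the GRmKO gastrocnemius libraries, and 48 of the 73 nuclear members have a retained transcript of at most 1000 bases. Among all 761 genes with such a transcript, 37.7% were higher in GRmKO under vehicle and 49.5% under CORT, against 35.4% and 56.2% of the 48 members. The members with short transcripts were thus past the fold about as often as other genes of that length, most closely under vehicle. Over 1000 bases, 14.3% of 11429 genes were higher under vehicle and 13.2% under CORT, against 12% and 32% of 25 members. Across the 73 members Spearman's correlation of the log2 change with transcript length was -0.48 under vehicle and -0.46 under CORT, in a description over genes that share the same libraries. The part of transcript length in the members' changes was not tested.

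**Figure D2:**
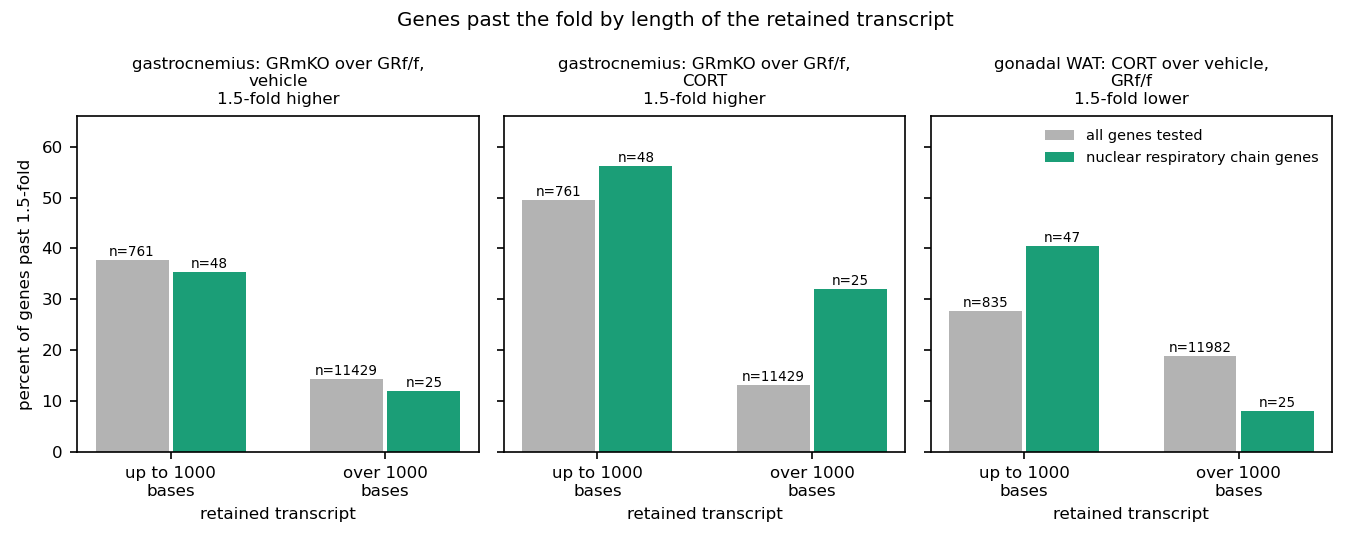
Percent of genes at least 1.5-fold higher (gastrocnemius, GRmKO over GRf/f) or lower (gonadal WAT, CORT over vehicle in GRf/f), for all genes compared (grey) and nuclear members (green), split at a retained transcript of 1000 bases; n is the number of genes. Short transcripts passed the fold more often than long ones in all 3 comparisons, for all genes as for the members.

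The complex I subunit gene Ndufa3, on chromosome 7 (3617373 to 3620327), gave the largest rise. It was at 12.7 CPM in GRf/f vehicle, 90.2 in GRf/f CORT, 153 in GRmKO vehicle and 177 in GRmKO CORT. The GRf/f vehicle library stood far below the other 3, and every comparison with it was large, at log2 3.55 (counting interval 3.41 to 3.79) for GRmKO under vehicle and 2.78 (2.64 to 3.03) for CORT in GRf/f. Without that library the GRmKO gene was higher by 0.97 under CORT. In liver Ndufa3 ranged from 48.2 to 59.4 CPM and in gonadal WAT from 53.9 to 90.1 CPM, so the low value was seen in 1 of 12 libraries. The gene has 2 protein-coding transcripts in GENCODE release M21.

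Cox8b and Cox7a1, the muscle isoforms of subunits VIII and VIIa of complex IV, were higher in GRmKO gastrocnemius under both treatments. Cox8b was at 251 CPM in GRf/f vehicle, 199 in GRf/f CORT, 491 in GRmKO vehicle and 449 in GRmKO CORT, and the genotypes did not overlap. The log2 change was 0.97 (0.92 to 1.02) under vehicle and 1.17 (1.12 to 1.23) under CORT. Cox7a1 was at 119, 88.3, 231 and 215 CPM in the same order, again with no overlap, and rose by 0.95 (0.88 to 1.03) and 1.28 (1.202 to 1.364). Their general counterparts were also higher: Cox7a2 was at 85.5, 71.9, 142 and 149 CPM, with changes of 0.73 and 1.04, whereas Cox8a, at 39.0, 34.8, 61.2 and 47.9 CPM, passed the fold under vehicle only (0.64, against 0.45 under CORT). Whether 1 isoform of a pair responded more than the other could not be tested with 1 library a group.

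Of the other isoform genes of complex IV, Cox6a1, Cox6a2, Cox4i1 and Cox6b1 stayed within the fold between genotypes, whereas Cox4i2 and Cox7a2l each passed it under 1 treatment. Cox6a2, the muscle form of subunit VIa, was at 1039, 1117, 1498 and 1387 CPM and its changes, 0.53 and 0.31, stayed within the fold, as did those of Cox6a1 (32.99, 27.2, 41.8 and 34.8 CPM). Cox4i1 ranged from 298 to 422 CPM, with changes of 0.26 and 0.50, and Cox6b1 from 239 to 359 CPM, with 0.56 and 0.53. Cox7a2l, counted here as an assembly factor and not as a subunit, was 85.7, 88.8, 141 and 127 CPM and passed the fold under vehicle (0.72, against 0.52 under CORT). Cox4i2, at 1.04 CPM in GRf/f CORT and 1.86 in GRmKO CORT, passed it under CORT (0.62, counting interval 0.04 to 1.72), against 0.47 under vehicle.

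Per kilobase of retained transcript, which allows genes to be set side by side, the muscle forms led in gastrocnemius and the general forms elsewhere. Cox6a2 was at 1528 to 2202 CPM per kilobase in gastrocnemius, against 47.7 to 73.1 for Cox6a1, and Cox8b at 554 to 1364 against 63.3 to 111 for Cox8a. Cox7a1 was at 225 to 588 against 109 to 226 for Cox7a2. In liver Cox8b was listed at 0 in all 4 libraries, where Cox8a was at 333 to 389 CPM per kilobase, and in gonadal WAT Cox8b was at 11.7 to 54.3 against 692 to 1197 for Cox8a.

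**Figure D3:**
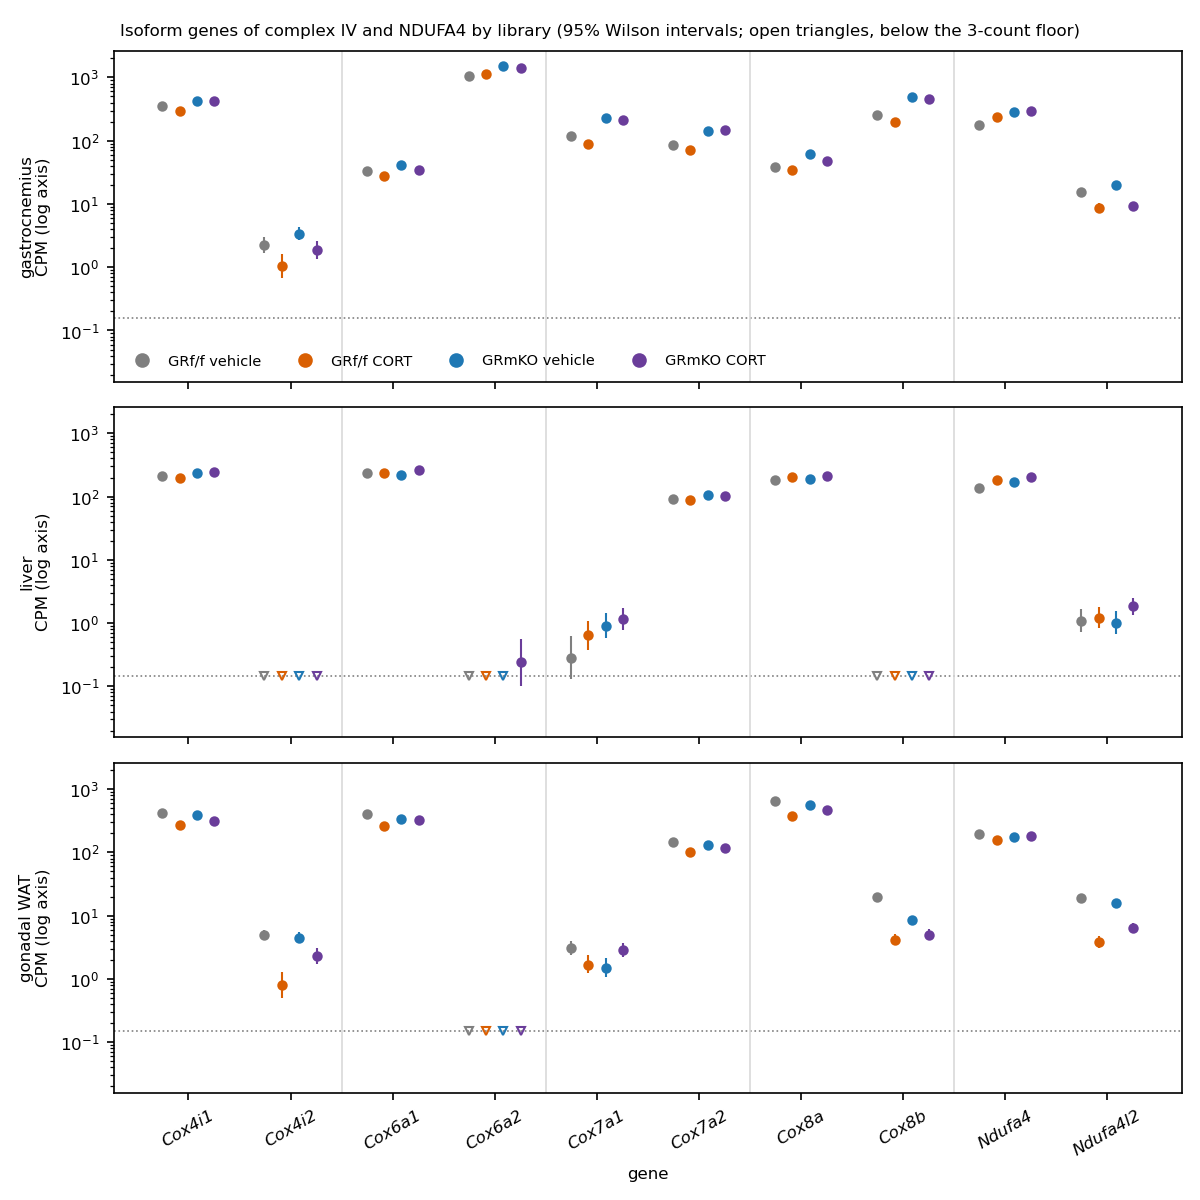
CPM of the isoform genes of complex IV and of Ndufa4 and Ndufa4l2 in the 4 libraries of each tissue, on a log axis with 95% Wilson intervals for counting error; the dotted line is the 3-count floor and open triangles lie below it. In gastrocnemius Cox7a1 and Cox8b were higher in both GRmKO libraries, and in gonadal WAT Cox4i2, Cox8b and Ndufa4l2 were lowest in GRf/f CORT.

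Other members that rose most in gastrocnemius were Uqcrh, a small subunit of complex III, and Ndufaf8, an assembly factor of complex I. Uqcrh was at 101 CPM in GRf/f vehicle, 151 in GRf/f CORT, 218 in GRmKO vehicle and 214 in GRmKO CORT, so GRf/f vehicle was lowest and its change under vehicle was 1.10 (1.03 to 1.18), against 0.50 under CORT. Ndufaf8 was at 10.5, 6.16, 14.1 and 14.3 CPM, with GRf/f CORT lowest, and its change under CORT was 1.15 (0.90 to 1.53). Ndufaf4, another assembly factor, was the 1 nuclear member that fell in GRmKO, at 41.6, 45.3, 26.0 and 37.7 CPM, by 0.67 on the log2 scale under vehicle.

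Of the 4 complex II genes and 3 complex III genes named by rule, 1 passed the fold between genotypes in gastrocnemius. It was higher in GRmKO under CORT, as were 15.4% of all genes. Of complex II, Sdha, which carries the succinate site, was at 534, 652, 545 and 550 CPM with genotype changes of 0.03 and -0.24, and Sdhb, its iron-sulfur subunit, at 337, 250, 386 and 413 CPM, rose under CORT only (0.72). The membrane subunits Sdhc (105 to 139 CPM) and Sdhd (127 to 170 CPM) stayed within the fold. So did Uqcrc1, Uqcrc2 and Uqcrfs1, the core and Rieske subunits of complex III, with genotype changes between -0.12 and 0.34. These 7 genes have retained transcripts of 815 to 2900 bases.

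Markers of fibre types and of other cells also differed between the gastrocnemius libraries. The 6 markers of slow or oxidative fibres summed to 614 CPM in both GRf/f libraries, 1623 in GRmKO vehicle and 883 in GRmKO CORT, and the 3 fast myosins to 38845, 33496, 17470 and 26950 CPM. The 6 hepatocyte markers summed to 5.92, 8.70, 73.4 and 256 CPM, and the red cell markers to 516.8, 527.9, 926 and 1709 CPM. For the sums of these 4 lists the genotypes did not overlap. Of the 6 slow or oxidative markers, 6 were higher in GRmKO under vehicle, and 3 were higher and 0 lower under CORT. Myh7, one of these 6, was at 180, 204, 393 and 178 CPM, so its genotypes did overlap. The 4 fibroblast markers summed to 1415, 474, 2093 and 681 CPM, with GRmKO above GRf/f within each treatment. The 5 macrophage markers summed to 39.997, 45.8, 126 and 34.2 CPM, with all 5 higher in GRmKO under vehicle, and 1 higher and 3 lower under CORT. The white adipocyte markers, at 185, 588, 291 and 446 CPM, did not separate by genotype. Their part in the members' changes was not tested.

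CORT changed fewer members in gastrocnemius. In GRf/f mice 2 of 73 nuclear members were higher and 7 lower, against 8.93% higher and 15.3% lower among all genes, and the median was -0.12 against -0.09. In GRmKO mice 0 were higher and 2 lower, against 4.87% and 15%, and the median was 0.07 against -0.09. Over all 86 members compared, mitochondrial ones included, 4 were higher and 7 lower in GRf/f, which became 5 and 5 with TMM or median-of-ratios scaling, and 0 higher and 2 lower in GRmKO became 2 and 1 with TMM and 2 and 2 with median-of-ratios scaling. The 2 that fell in both genotypes were Cox4i2 and Ndufa4l2, whose levels are low. Cox4i2, the isoform of subunit IV best known from lung, was at 2.28 CPM in GRf/f vehicle, 1.04 in GRf/f CORT, 3.36 in GRmKO vehicle and 1.86 in GRmKO CORT, with changes of -0.86 and -0.71. Ndufa4l2, a hypoxia-responsive relative of Ndufa4, was at 15.4, 8.74, 19.9 and 9.23 CPM, with both CORT libraries below both vehicle libraries and changes of -0.78 and -1.07. Ndufa4 itself was at 176, 235, 281 and 295 CPM and rose in GRmKO under vehicle only (0.67).

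In GRf/f mice the largest falls with CORT were in Ndufab1, the mitochondrial acyl carrier protein, and Ndufc1, an accessory subunit. Ndufab1 was at 157, 70.9, 121 and 121 CPM and fell by 1.14 on the log2 scale (counting interval -1.24 to -1.06). Ndufc1 was at 81.0, 37.3, 63.0 and 74.3 CPM and fell by 1.11. GRf/f CORT was the lowest library for both genes, and in GRmKO the CORT changes were -0.01 and 0.24. Ndufs4, a complex I subunit, rose in GRf/f by 0.64, from 36.8 to 57.5 CPM, and was at 66.4 and 70.0 CPM in GRmKO. The CORT comparison in GRf/f and the genotype comparisons share a GRf/f library, so a value that stands apart there enters both.

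Of the 13 mitochondrially encoded members, 2 were higher in GRmKO gastrocnemius under vehicle and 1 under CORT, against 15.8% and 15.4% of all genes. With CORT 2 were higher in GRf/f and 0 in GRmKO, against 8.93% and 4.87%. In these 4 comparisons 0 were lower, against 9.76% to 15.3% of all genes. mt-Nd3, a complex I subunit on chromosome M (9459 to 9806), was at 1912 CPM in GRf/f vehicle, 2911 in GRf/f CORT, 4264 in GRmKO vehicle and 4771 in GRmKO CORT, and rose in GRmKO by 1.16 under vehicle and 0.71 under CORT and in GRf/f by 0.61 with CORT. mt-Atp8 was at 3770, 6968, 7125 and 6223 CPM, and rose by 0.92 in GRmKO under vehicle and by 0.89 with CORT in GRf/f. GRf/f vehicle was lowest for both. mt-Atp6, which shares the 43 bases shown above, was at 26545, 30465, 35129 and 32013 CPM, with GRf/f vehicle also lowest but no change past the fold. The other 10 mitochondrial genes had no change past the fold in any gastrocnemius comparison. The median over the 13 was 0.27 for GRmKO under vehicle and -0.08 under CORT, against 0.08 and 0.04 over all genes. For CORT in GRf/f and GRmKO it was 0.19 and -0.14, against -0.09 over all genes in both.

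Complex IV's largest subunit, mt-Co1, was the most abundant, at 73438, 63583, 74528 and 68777 CPM. mt-Nd5 was at 15306, 15320, 14191 and 10747 CPM and mt-Nd6 at 4532, 4654, 5130 and 3621 CPM, with GRmKO CORT the lowest library for both. These 2 complex I genes are on opposite strands and share 14 bases, and whether counting used strand was not stated.

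The remaining mitochondrial genes stayed within the fold in gastrocnemius, listed in the order GRf/f vehicle, GRf/f CORT, GRmKO vehicle and GRmKO CORT. Of the complex IV subunits, mt-Co2 was at 21221, 22515, 28444 and 27919 CPM and mt-Co3 at 22438, 21963, 27989 and 28481 CPM, and both GRmKO libraries were above both GRf/f libraries for each. Cytochrome b of complex III, mt-Cytb, was at 24522, 28022, 28834 and 26471 CPM, with GRf/f vehicle lowest. Of the complex I subunits, mt-Nd1 was at 20941, 21672, 27136 and 23641 CPM, mt-Nd2 at 15924, 19342, 18923 and 16336 CPM and mt-Nd4 at 26283, 31746, 31592 and 27792 CPM, GRf/f vehicle again being lowest for all 3. mt-Nd4l, which shares 7 bases with mt-Nd4, was at 3577, 4230, 3423 and 3102 CPM, and GRmKO CORT was lowest.

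**Figure D4:**
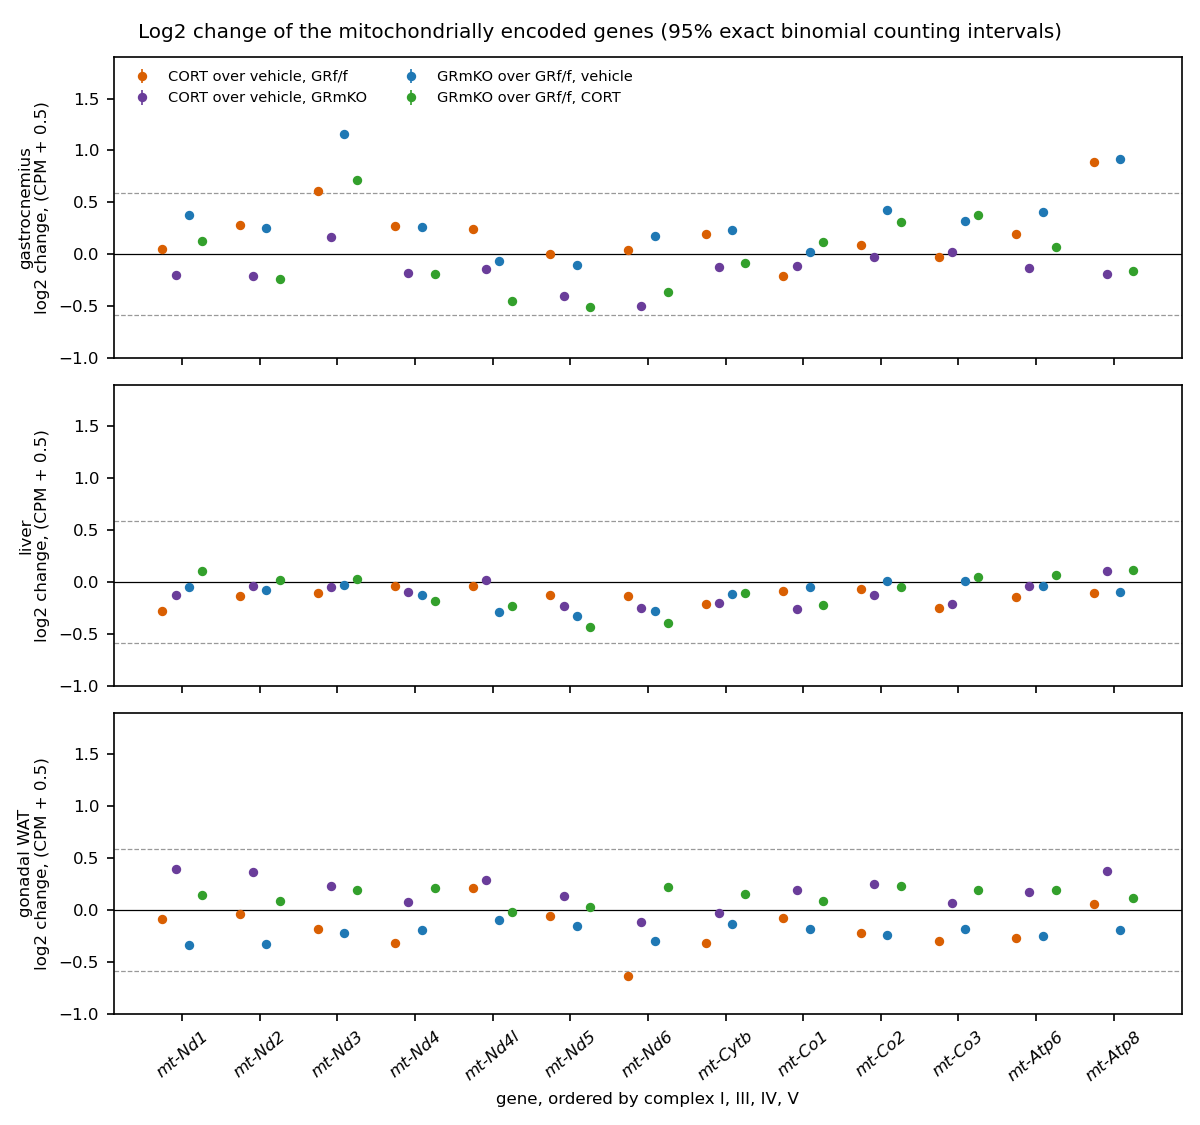
Log2 change, on (CPM + 0.5), of the 13 mitochondrially encoded genes in the 4 comparisons of each tissue, with 95% exact binomial counting intervals (often narrower than the points); dashed lines mark 1.5-fold. In gastrocnemius mt-Nd3 and mt-Atp8 passed the fold, in gonadal WAT mt-Nd6 did, and in liver none.

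In liver the respiratory chain genes showed almost no change. With CORT in GRf/f, 0 of 69 nuclear members were higher and 0 lower, against 14.8% and 13.9% of all 10943 genes. With CORT in GRmKO 1 was higher and 0 lower, against 10.6% and 8.94%. For GRmKO over GRf/f the counts were 0 and 0 under vehicle, against 6.31% and 4.91%, and 0 and 0 under CORT, against 10% and 7.69%. Median log2 changes of the nuclear members were 0.06, 0.05, 0.14 and 0.12 in that order. The 1 member called was Ndufa4l2, at 1.10, 1.22, 1.01 and 1.83 CPM, a change of 0.63 with a counting interval of 0.04 to 1.69, and under TMM or median-of-ratios scaling the count of members was 0 higher and 1 lower.

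No mitochondrial gene passed the fold in liver. Of the 13, all 13 were below 0 with CORT in GRf/f and 11 with CORT in GRmKO, with medians of -0.13 and -0.12. mt-Nd5 spread most, at 9809 CPM in GRf/f vehicle, 8977 in GRf/f CORT, 7838 in GRmKO vehicle and 6661 in GRmKO CORT, with a change of -0.43 between the genotypes under CORT. Both GRmKO libraries were below both GRf/f libraries. Cox4i2, Cox6a2, Cox6b2, Cox7a1 and Cox8b had a mean under 1 CPM in liver and were not compared.

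In gonadal WAT many nuclear members were lower with CORT in GRf/f mice. There 0 of 72 were higher and 21 lower, against 14.4% and 19.5% of all 12817 genes, and the median was -0.45 against -0.06, with 70 of the 72 below 0. Complex IV stood lowest, with 10 of 14 subunits lower and a median of -0.66, against 7 of 36 for complex I (-0.46), 1 of 4 for complex II (-0.34), 1 of 8 for complex III (-0.41) and 1 of 8 assembly factors (-0.16). The share of members lower, 21 of 72, was above the share of all genes, and 19 of the 21 had a retained transcript of at most 1000 bases. Of 835 genes with such a transcript 27.7% were lower, against 40.4% of 47 members, and over 1000 bases 18.9% of 11982 genes were, against 8% of 25 members.

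In GRmKO mice the nuclear members moved less with CORT in gonadal WAT. The counts were 1 higher and 4 lower, against 8.97% and 17.2% of all genes, and the median was -0.13, as for all genes. The change in GRmKO lay above the one in GRf/f for 67 of the 72 nuclear members, by a median of 0.34, and for all 13 mitochondrial ones, by 0.40. The same count was not made over all genes, whose medians were -0.06 in GRf/f and -0.13 in GRmKO. Over the 835 genes with a retained transcript of at most 1000 bases, the medians were -0.35 and -0.10. Of the 72 nuclear members, 47 have such a transcript. Whether the difference between genotypes exceeds that between pools could not be tested. Between genotypes directly, 0 nuclear members were higher and 2 lower under vehicle (5.11% and 5.05% of all genes), and 3 were higher and 0 lower under CORT (5.26% and 6.13%), with medians of -0.18 and 0.19. The vehicle comparison and the CORT comparison in GRf/f share the GRf/f vehicle library, in which nuclear members took their largest share of counts in this tissue.

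**Figure D5:**
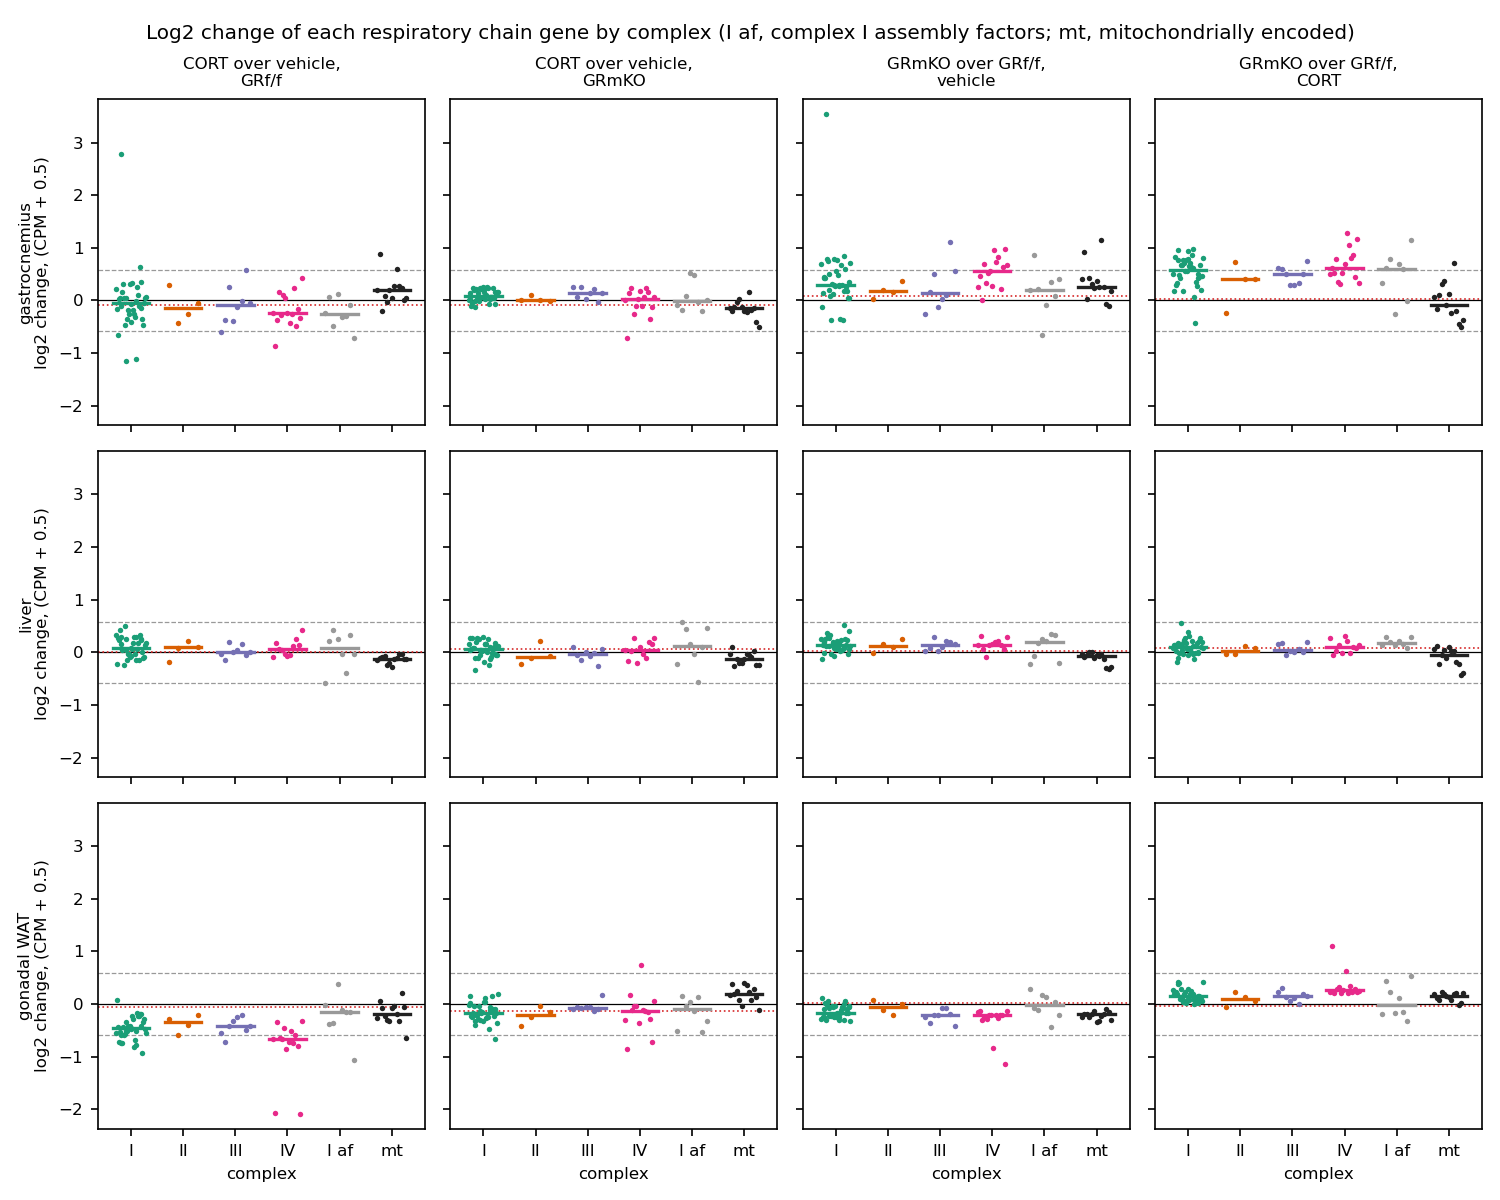
Log2 change, on (CPM + 0.5), of each compared member by complex, for 3 tissues (rows) and 4 comparisons (columns); thick bars are medians, dashed lines mark 1.5-fold and the red dotted line is the median of all genes. Ndufa4l2 and Cox7a2l are not drawn. Nuclear members lay above 0 in gastrocnemius for GRmKO over GRf/f, most under CORT (medians 0.41 to 0.62 by complex), below 0 in gonadal WAT with CORT in GRf/f (-0.34 to -0.66), and near 0 in liver.

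The 3 members that fell most in gonadal WAT were Ndufa4l2, Cox8b and Cox4i2. Ndufa4l2 was at 19.2 CPM in GRf/f vehicle, 3.86 in GRf/f CORT, 15.7 in GRmKO vehicle and 6.49 in GRmKO CORT, and fell by 2.18 (counting interval -2.69 to -1.96) in GRf/f and by 1.21 in GRmKO. Both CORT libraries were below both vehicle libraries. Cox4i2 was at 4.96, 0.802, 4.50 and 2.28 CPM in the same pattern and fell by 2.07 and 0.85. For these 2 genes GRf/f CORT was lowest, and GRmKO CORT was higher than it by 0.68 and 1.10.

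Cox8b in gonadal WAT was at 19.5, 4.20, 8.64 and 5.03 CPM, so GRf/f vehicle stood above the other 3. With CORT the log2 change was -2.09 in GRf/f and -0.73 in GRmKO, and between genotypes under vehicle it was -1.13. Cox8a, the form that predominates in fat, was at 659, 380, 571 and 467 CPM, and fell by 0.79 in GRf/f, against -0.29 in GRmKO. Cox7a1, at only 3.10, 1.69, 1.52 and 2.89 CPM, fell with CORT in GRf/f (-0.72, counting interval -1.51 to -0.24) and rose with it in GRmKO (0.75, 0.26 to 1.61).

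Cox4i1 and Cox6a1, general isoforms of complex IV, also fell. Cox4i1 was at 427, 269, 387 and 315 CPM in gonadal WAT and fell by 0.66 in GRf/f, against -0.30 in GRmKO. Cox6a1, at 409, 259, 334 and 325 CPM, fell by 0.66 in GRf/f, while Cox6b1 (334, 243, 290 and 282 CPM, a change of -0.46) and Cox7a2 (148, 103, 129 and 119 CPM, -0.52) stayed within the fold. In each of these 4 genes GRf/f CORT was the lowest library and GRf/f vehicle the highest.

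Of the complex II and III genes named by rule, Sdhb passed the fold in gonadal WAT, with CORT in GRf/f, where 19.5% of all genes were lower. Sdhb fell by 0.59 in GRf/f, from 200 to 133 CPM, whereas Sdha, Sdhc and Sdhd had changes of -0.28, -0.39 and -0.21. Uqcrc1, Uqcrc2 and Uqcrfs1 had changes of -0.31, -0.24 and -0.20. Ndufs7, a complex I core subunit that carries an iron-sulfur cluster, fell in both genotypes: it was at 119, 62.5, 111 and 69.3 CPM, with both CORT libraries below both vehicle libraries and changes of -0.92 and -0.67. Of the mitochondrial genes, mt-Nd6 fell in GRf/f by 0.64, at 3776, 2426, 3065 and 2823 CPM, and the other 12 stayed within the fold.

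Several markers differed between the gonadal WAT libraries by treatment. The 4 endothelial markers summed to 592 CPM in GRf/f vehicle, 222 in GRf/f CORT, 550 in GRmKO vehicle and 297 in GRmKO CORT. Ndufa4l2 and Cox4i2 had the same order of libraries, but so did Cox4i1, Cox6a1, Cox6b1, Cox7a2, Cox8a, Ndufs7 and the summed share of the nuclear members. The 5 macrophage markers summed to 252, 660, 318 and 567 CPM. White adipocyte markers summed to 22284 to 24691 CPM, of which Fabp4 alone was 10268 to 12411 CPM, and they went both ways with CORT in GRf/f. Lep, the leptin gene, rose by 2.95 there, from 722 to 5587 CPM, whereas Adipoq, which encodes adiponectin, changed by -0.91 and Plin1, which encodes a lipid droplet coat protein, by -0.62. Brown adipocyte markers summed to 8.74 to 14.6 CPM, with Ucp1 at 0.05 CPM or less, and they also went both ways with CORT in GRf/f. Cidea, at 8.27, 2.16, 4.56 and 3.37 CPM, changed by -1.72 there, with GRf/f vehicle highest as for Cox8b. Dio2, at 0.80, 8.29, 0.81 and 5.98 CPM, rose by 2.76. Skeletal muscle fibre markers summed to 43.8, 114, 200 and 104 CPM, but Acta1 alone made up 37.4, 113, 199 and 103 CPM of this, and Ckm, Mylpf, Tnnt3 and Myh4 were each highest in GRf/f vehicle, at most 2.80 CPM. Cox6a2, the muscle isoform with the most CPM per kilobase in gastrocnemius, was at or below 0.152 CPM in all 4. Red cell markers summed to 2992, 1474, 3090 and 3863 CPM and lymphocyte markers to 23.8, 0.85, 36.5 and 20.5 CPM, GRf/f CORT being lowest for both, and epididymis markers to at most 1.10 CPM. The part of these cells in the members' changes was not tested. Spearman's correlation of the members' CORT change in GRf/f was 0.55 with transcript length and -0.40 with GC content over 72 genes that share the 2 libraries.

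Other genes of oxidative phosphorylation were taken from lists. Of 17 nuclear genes of ATP synthase, 8 were higher in GRmKO gastrocnemius under CORT (median 0.58), where 15.4% of all genes were, and 4 under vehicle (0.30), where 15.8% were. In gonadal WAT 6 of the 17 were lower with CORT in GRf/f (-0.50), against 19.5% of all genes, and 0 in GRmKO, against 17.2%. These shares also apply to the lists that follow. The catalytic subunits Atp5a1 and Atp5b stayed near 0 in those comparisons, at -0.12 to 0.20 in gastrocnemius and -0.02 and -0.08 in gonadal WAT. Of 28 assembly genes outside the naming rule, 13 were higher in GRmKO gastrocnemius under CORT (median 0.55) and 2 under vehicle (0.18). Of 14 citrate cycle genes 0 changed in gastrocnemius under CORT and 1 was higher under vehicle, with medians of 0.14 and -0.10. Cycs, cytochrome c, was at 145, 233, 305 and 324 CPM in gastrocnemius, where the GRf/f vehicle library was lowest and the genotype change was 1.07 under vehicle and 0.47 under CORT.

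Regulators of mitochondrial biogenesis passed the fold in both directions. Of 9 in gastrocnemius, 1 was higher and 3 lower in GRmKO under vehicle (15.8% and 9.76% of all genes), and 1 was higher and 1 lower under CORT (15.4% and 13.8%). Ppargc1a, the coactivator PGC-1α, was at 64.6, 40.2, 34.6 and 34.5 CPM, with GRf/f vehicle highest and a change of -0.89 under vehicle. Esrrg, an oestrogen-related receptor, was at 6.19, 11.96, 20.6 and 18.02 CPM and rose by 1.65 under vehicle. Nrf1 was at 9.71, 7.43, 5.86 and 4.62 CPM and fell by 0.68 and 0.63. Of 14 genes of mitochondrial DNA transcription and maintenance, 13 were compared in gastrocnemius and 4 were higher in GRmKO under each treatment, against 15.8% of all genes under vehicle and 15.4% under CORT. In gonadal WAT, 2 of 7 biogenesis regulators compared were lower with CORT in GRf/f (19.5% of all genes), Ppargc1a at 7.01 and 3.82 CPM and Ppargc1b at 6.82 and 3.82 CPM. Of 8 electron carrier and uncoupling genes compared in gastrocnemius, 2 were higher and 0 lower in GRmKO under each treatment, and of 8 in gonadal WAT 2 were lower with CORT in GRf/f, counts of so few genes that lie near the shares of all genes just given. Of 9 genes of mitochondrial protein quality and stress in liver, 4 were higher with CORT in GRf/f (14.8% of all genes) and 3 in GRmKO (10.6%). Those higher were Atf5, Fgf21 and Gdf15 in both genotypes and Ddit3 in GRf/f, against a change of -0.33 for Ddit3 in GRmKO. Hspd1, Hspe1, Lonp1 and Clpp stayed near 0, with CORT changes of -0.17 to 0.13 in the 2 genotypes.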

How the data were processed

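Transcript abundance was measured in 12 pooled libraries. Per the labels and the methods, RNA was sequenced as paired reads of 100 bases, and the authors quantified it with Salmon 1.2.1 on protein-coding transcripts (GENCODE, build GRCm38) and imported it with tximport on its length-scaled scale in R 3.5.0. The deposited values are expected counts with no scaling between libraries. For names listed more than once, only the entry with the highest sum had been retained by the authors. The methods name summarizeToGene, a step of tximport that sums over genes. Each row nevertheless bears 1 transcript identifier, and whether values had been summed over a gene was not settled.

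Counts were divided by the library total (CPM). Log2 changes were computed on CPM + 0.5 within a tissue, for genes with a mean of at least 1 CPM, and called at 1.5-fold. CPM carry Wilson intervals and ratios exact binomial intervals on counts rounded to whole numbers, without the added 0.5 CPM. The authors used NOISeq, which simulates samples, and a fixed fold took its place. Python 3.11.15, numpy 2.4.6, pandas 2.3.3, scipy 1.17.1 and, for TMM factors, edgeR 4.0.16 in R 4.3.3 were used. The call and interval were tested on simulated data. Positions and lengths came from GENCODE release M21 on GRCm38, which held all 26300 deposited transcript identifiers.

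The named genes were every mitochondrially encoded member, the Sdh genes, Uqcrc1, Uqcrc2, Uqcrfs1, the isoform pairs, and the 3 nuclear members with the largest rise and fall past the fold per comparison. Ndufs7, Cycs and the other genes named outside that rule were chosen after their values were seen. The members and lists were chosen with earlier results of these data known. Alternatives tried were other scalings, added CPM, filters, folds and subsets.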

Additional observations from a re-analysis of the deposited data

Results flagged for a closer look

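Cox7a1, Cox8b, Ndufa3 and Ndufa4l2 passed 1.5-fold in opposite directions in 2 groups under the same contrast. With 1 library a group each such difference was not tested.

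Cox7a1 in gonadal WAT changed with CORT by -0.72 on the log2 scale in GRf/f and by 0.75 in GRmKO, and between genotypes by -0.84 under vehicle and 0.63 under CORT, all at levels of 1.52 to 3.10 CPM. Under vehicle the same gene rose in GRmKO gastrocnemius by 0.95. Cox8b rose in GRmKO gastrocnemius under vehicle by 0.97 and changed by -1.13 in gonadal WAT. Ndufa3 rose with CORT in GRf/f gastrocnemius by 2.78, where the vehicle library stood far below the other 3, and changed by -0.73 in gonadal WAT. Ndufa4l2 changed with CORT in GRmKO by -1.07 in gastrocnemius and -1.21 in gonadal WAT and by 0.63 in liver, where it was at 1.01 to 1.83 CPM.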

How the results depend on the processing

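The counts of members past 1.5-fold were, in the order CORT in GRf/f, CORT in GRmKO, genotype under vehicle and genotype under CORT, 11, 2, 23 and 36 in gastrocnemius, 0, 1, 0 and 0 in liver and 22, 5, 2 and 3 in gonadal WAT. At 2-fold they were 3, 1, 3 and 4 in gastrocnemius, 0 with CORT in GRmKO in liver, and 4, 1, 1 and 1 in gonadal WAT. For members whose gene has 1 protein-coding transcript, an alternative chosen after seeing the data that keeps 40, 38 and 39 members, they were 4, 1, 8 and 15 in gastrocnemius and 9, 2, 1 and 1 in gonadal WAT, and unchanged in liver. Counts also moved by over 1.5 times under settings that touched the small ones. With CORT in GRmKO gastrocnemius the count was 4 with median-of-ratios factors and 1 with 2 CPM added, with a mean of at least 10 CPM, or with subunits only. In liver with CORT in GRf/f it was 1 with TMM, without mitochondrial rows in the total, or with 0.1 CPM added, and with CORT in GRmKO it was 2 without mitochondrial rows, 3 with 0.1 CPM added, and 0 with 2 CPM added, a mean of at least 10 CPM or subunits only. Without a filter on the mean, liver had 1 for genotype under vehicle. In gonadal WAT a mean of at least 10 CPM gave 2 with CORT in GRmKO and 0 and 1 for genotype under vehicle and CORT, and 2 CPM added gave 1 and 1 for these. The cause was not tested beyond what each setting removes.

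No named member reversed direction among 3108 values. Of 168 medians 3 changed sign, all within 0.02 of 0: the mitochondrial median for CORT in GRmKO gastrocnemius (0.01 with TMM) and the nuclear median for CORT in GRmKO liver (-0.02 with TMM, -0.01 with median-of-ratios). TMM moved the median of all genes by 0.14 in gastrocnemius and 0.12 in gonadal WAT for CORT in GRmKO. No paired analysis was possible because each group holds 1 library, and for the same reason no library could be left out. Counting error is small for most members, and the spread between mice or pools is unknown.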
